A study of Mus musculus with 14 samples.

Results

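Gene expression in the control hippocampus was compared with that in the control cerebral cortex of mice at postnatal day 7 (P7), using the control arrays of a 14-array series. The series was made to study the loss of Ctcf, and its 7 control arrays, 3 labelled hippocampus and 4 labelled cortex, also carry a comparison of 2 brain regions. All control mice had a C57BL/6 background and were homozygous for floxed Ctcf without Nex-Cre, so that they carried the floxed alleles but no Cre recombinase. The remaining 7 arrays came from mice in which Cre, expressed from the Nex (Neurod6) locus in excitatory neurons, deleted Ctcf (cKO). Whole tissue was frozen and RNA was labelled for Affymetrix exon arrays, and values are log2 expression per probe set. Every array is labelled male and a biological replicate, no animal is named, and p-values therefore measure only the spread between these arrays. Hippocampus control 2 matched a cortex array and was left out, so that 6 of the 14 arrays entered the comparison: hippocampus control 1 and 3 and cortex control 1 to 4. Values with all 7 arrays as labelled are given beside the main ones.

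The hippocampus and the neocortex are both parts of the developing pallium and share their main excitatory neuron programme. The hippocampus is divided into the dentate gyrus, where granule cells are still being born in the first postnatal weeks, and the fields CA1, CA2 and CA3. The neocortex has layers, from deep layers that project below the cortex to layer 4, which receives thalamic axons, and upper layers that connect cortical areas.

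Among all 91 pairs of arrays, 3 stood apart, and each joined an array labelled hippocampus to one labelled cortex of the same genotype. Hippocampus control 2 and cortex control 3 were one such pair, and the others joined hippocampus cKO 1 to cortex cKO 3 and hippocampus cKO 3 to cortex cKO 2. Spearman correlation over all probe sets was at least 0.997 in these 3 pairs and at most 0.990 in the other 88, and the SD of the difference was at most 0.213 against at least 0.363. Within the 3 pairs the remaining differences, hippocampus label minus cortex label, correlated with each other across probe sets (r from 0.687 to 0.688, a description over probe sets, which are not replicates). Taken from the 2 cKO pairs, this offset between arrays labelled hippocampus and cortex had a median of 0.01 and an SD of 0.121 (log2) at mean levels above 6. At or below 6 its median was 0.13 and its SD 0.257. The SD of values within an array was 2.19 to 2.21 on the 6 arrays labelled hippocampus and 2.24 to 2.28 on the 8 labelled cortex, so set of arrays and region label cannot be told apart, and values with the offset of the 2 cKO pairs subtracted are given where a call depends on it. Y-linked signal (mean of Eif2s3y and Kdm5d) was 4.10 on hippocampus control 1 and at least 8.07 on the other 6 control arrays, against the common label of male. Among cKO arrays it was low on hippocampus cKO 2 (3.79), cortex cKO 1 (3.61) and cortex cKO 4 (3.65), and at least 7.91 on the others.

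The 4 markers chosen for the regions separated the arrays as labelled, apart from hippocampus control 2. Prox1, a homeobox factor that specifies dentate granule cells, measured 8.91 and 9.28 on the hippocampus arrays and 7.20, 6.86, 6.83 and 6.61 on the cortex arrays. The 2 hippocampus arrays lay above all cortex arrays, with a log2 difference of 2.22 ± 0.19 (SE), adjusted p = 0.00678, a 4.65-fold higher level. Zbtb20, a zinc finger repressor needed for hippocampal pyramidal neuron identity, measured 10.43 and 10.59 on the hippocampus arrays and 8.40, 8.25, 8.25 and 8.07 on the cortex arrays, again with no overlap, and the difference was 2.27 ± 0.13 (SE), adjusted p = 0.00309. Rorb, a nuclear receptor of layer 4 neurons, went the other way and measured 7.14 and 7.58 on the hippocampus arrays and 9.72, 9.59, 9.49 and 9.49 on the cortex arrays. Its level was 4.63-fold lower in hippocampus (log2 difference -2.21 ± 0.16 (SE), adjusted p = 0.00406). Cux2, a homeobox factor of upper layer neurons, measured 7.49 and 7.67 on the hippocampus arrays and 9.52, 9.38, 9.34 and 9.36 on the cortex arrays, and was lower in hippocampus, with a log2 difference of -1.82 ± 0.11 (SE), adjusted p = 0.0033. On hippocampus control 2 the levels were 6.65 for Prox1, 8.37 for Zbtb20, 9.33 for Rorb and 9.22 for Cux2, each beside the cortex arrays. With that array included as labelled, the differences were 1.40, 1.55, -1.55 and -1.27, with adjusted p from 0.207 to 0.277, and none was called. Among the called genes chosen by the rule here, Zbtb20, Cux2 and Rorb kept the call without each single array, and Prox1 lost it without at least 1: its adjusted p reached 0.0621 without hippocampus control 1.

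**Figure D1:**
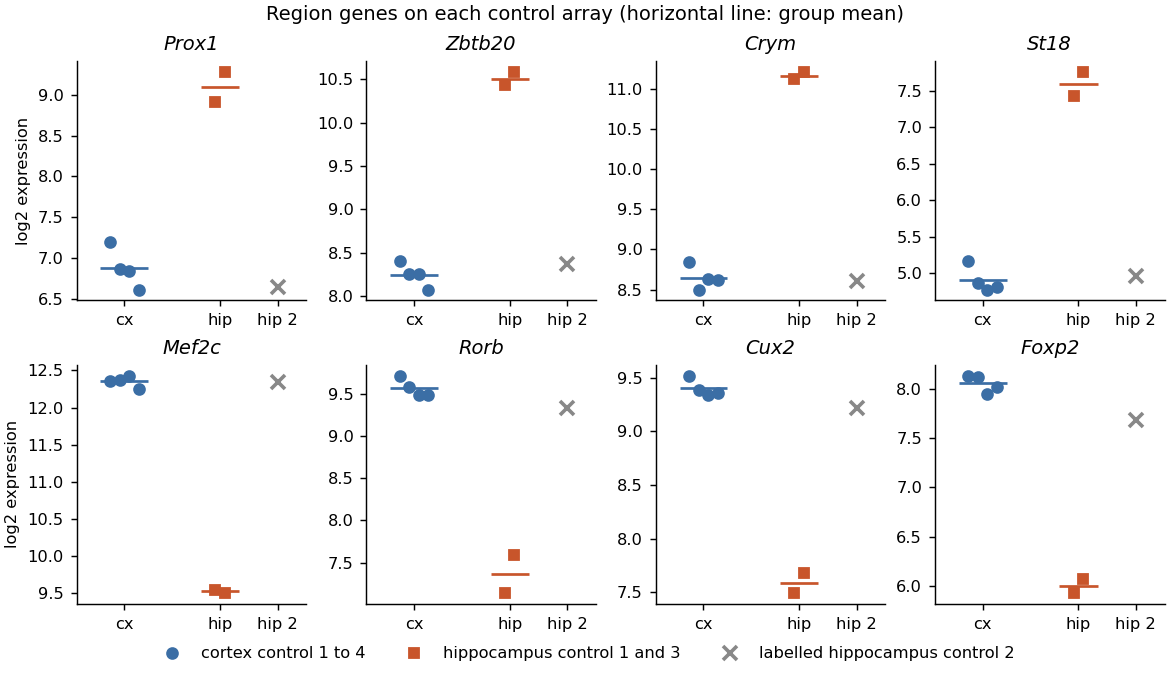
Log2 expression of 8 region genes (vertical axes, one panel per gene, scales differ and do not start at 0) on the 4 cortex control arrays (circles), hippocampus control 1 and 3 (squares) and the array labelled hippocampus control 2 (cross), with lines at group means. The crosses lie beside the circles: for Mef2c hippocampus control 2 measured 12.35, against 9.54 and 9.49 on the other hippocampus arrays.

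The promoter windows of these 4 markers are shown because they stand for the 2 regions in all that follows. They run from 250 bases before to 50 after a RefSeq start on GRCm38.p6, a later build than the mm9 of the arrays: chr1:190170778-190171077 on the minus strand for Prox1, chr16:43247034-43247333 on the plus strand for Zbtb20, chr19:19111147-19111446 on the minus strand for Rorb and chr5:122049802-122050101 on the minus strand for Cux2. The first listed window was taken for Prox1, Rorb and Cux2, which have 2 each. Capitals mark the E-box CANNTG, a 6-base pattern bound by basic helix-loop-helix factors such as Neurod1, read on both strands.
Prox1: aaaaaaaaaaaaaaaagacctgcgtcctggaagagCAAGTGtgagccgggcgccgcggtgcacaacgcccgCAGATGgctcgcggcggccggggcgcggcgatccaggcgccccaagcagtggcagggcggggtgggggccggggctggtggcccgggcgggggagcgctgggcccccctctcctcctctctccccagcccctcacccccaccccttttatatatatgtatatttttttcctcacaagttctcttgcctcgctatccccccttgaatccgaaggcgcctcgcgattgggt
Zbtb20: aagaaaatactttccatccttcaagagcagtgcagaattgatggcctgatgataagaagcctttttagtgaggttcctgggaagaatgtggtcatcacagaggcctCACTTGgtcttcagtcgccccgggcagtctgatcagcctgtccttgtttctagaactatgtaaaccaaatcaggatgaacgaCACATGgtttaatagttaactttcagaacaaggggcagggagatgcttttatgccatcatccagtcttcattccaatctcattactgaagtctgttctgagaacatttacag
Rorb: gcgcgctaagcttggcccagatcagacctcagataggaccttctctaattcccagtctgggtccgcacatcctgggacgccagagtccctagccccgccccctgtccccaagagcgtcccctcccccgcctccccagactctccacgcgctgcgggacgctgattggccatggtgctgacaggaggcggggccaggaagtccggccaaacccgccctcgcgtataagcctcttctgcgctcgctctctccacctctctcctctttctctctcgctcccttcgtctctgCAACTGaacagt
Cux2: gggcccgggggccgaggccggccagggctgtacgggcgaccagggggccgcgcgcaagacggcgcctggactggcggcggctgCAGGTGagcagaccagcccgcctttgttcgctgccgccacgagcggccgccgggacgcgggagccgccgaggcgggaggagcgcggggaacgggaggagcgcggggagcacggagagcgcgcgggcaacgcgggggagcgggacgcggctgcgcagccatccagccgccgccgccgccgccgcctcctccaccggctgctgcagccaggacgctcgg
CANNTG occurred 2 times in the windows of Prox1 and Zbtb20 and 1 time in those of Rorb and Cux2. It was present in 72.15% of all 27025 windows and in 62.8% of those of 8232 genes with a mean level above 6. Among genes called at that level it was present in 69.47% of 131 windows of genes higher in hippocampus and in 61.11% of 306 windows of genes lower there. The nuclear receptor sequence AGGTCA, searched on both strands, was in none of the 4 windows, in 11.49% of windows of genes above 6, in 10.69% of the higher and in 12.75% of the lower genes. These are counts of letters, and no binding was measured.

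Across the array, 1127 of 23332 probe sets (4.83%) were called, meaning an adjusted p under 0.05 by limma and a fold above 1.2, with 554 (2.37%) higher and 573 (2.46%) lower in hippocampus. The probe sets of 719 olfactory receptors, which serve as a guide to background, had a median of 3.66. Members of gene lists were counted at any level. Otherwise the description below rests mainly on probe sets with a mean of the 2 region means above 6. A probe set can pass this with a mean below 6 in 1 region. Of 14103 such probe sets 687 (4.87%) were called, 219 (1.55%) higher and 468 (3.32%) lower in hippocampus, and 220 of them differed more than 2-fold, 87 higher and 133 lower. Counted as genes with 1 symbol, 581 of 10191 (5.7%) were called at that level, 188 (1.84%) higher and 393 (3.86%) lower. Median differences depended on level, at 0.16 (log2) at or below 6, -0.04 above 6 and -0.13 in the top eighth of levels, and centring arrays on their medians moved the share of calls that were higher in hippocampus from 49.2% to 29.6%. Hippocampus and cortex arrays did not overlap in 37.6% of all probe sets, so lack of overlap alone marked many more genes than the test. The called genes nearest the level threshold were Tmem114 (6.02) and Folr1 (6.03) above it, and Bdnf (5.99) and Nhlh1 (6.00) below it.

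The number of calls rested on few arrays. With hippocampus control 2 included as labelled, 1 probe set (0.00429%) was called, higher in hippocampus (Olfr914, named after its value was seen, 1.36 at a level near background, adjusted p = 0.0172) and 4161 had an unadjusted p under 0.05, against 5824 without it. Hippocampus control 2 lay nearer the cortex mean than the hippocampus mean in 660 of the 687 calls above 6. This follows from its match to cortex control 3, which is part of that cortex mean. Omitting hippocampus control 1 left 26 calls, omitting hippocampus control 3 left 74, and omitting cortex control 1, 2, 3 or 4 left 520, 227, 147 and 384. All 1127 differences kept their sign in each of these fits, but they were called on the same arrays, so this is no separate check. With the offset of the 2 cKO pairs subtracted, 404 (1.73%) were called, 121 (0.519%) higher and 283 (1.21%) lower, and 385 of them were among the 1127. The genes named below were chosen by a rule, 127 of 137 of them were called, and 19 of the 127 kept the call without each of the 6 arrays in turn. Without hippocampus control 1, 108 of the 127 lost it, without hippocampus control 3, 96, and without cortex control 1, 2, 3 or 4, 23, 49, 65 and 33, and 92 kept it with the offset subtracted. As labelled, none of the 127 was called.

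**Figure D2:**
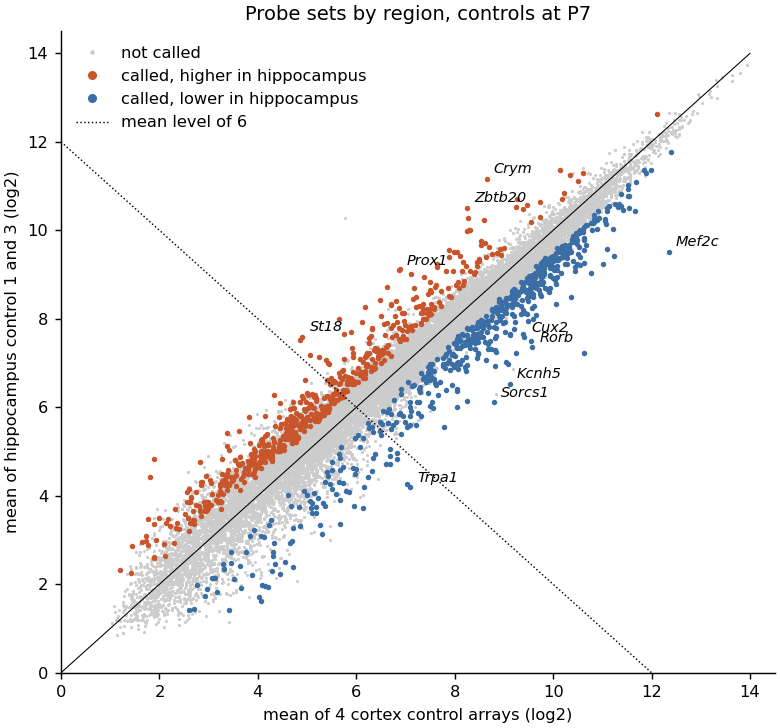
Mean log2 expression of each probe set on the 4 cortex control arrays (horizontal axis) and on hippocampus control 1 and 3 (vertical axis), with called probe sets in colour and the diagonal of equal levels as a solid line. Above the dotted line, where the mean of both is 6, 219 called probe sets lie above the diagonal and 468 below it.

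The genes with the largest higher levels in hippocampus included transcription factors, a thyroid hormone binding protein and several receptors. Crym, a thyroid hormone binding protein, measured 11.12 and 11.21 on the hippocampus arrays and 8.85, 8.50, 8.63 and 8.62 on the cortex arrays, and its difference of 2.52 ± 0.13 (SE), adjusted p = 0.00291 was a 5.73-fold higher level. The zinc finger factor St18 measured 7.44 and 7.76 on the hippocampus arrays and 5.16, 4.87, 4.78 and 4.81 on the cortex arrays, with a difference of 2.69 ± 0.16 (SE), adjusted p = 0.0033. Lhx9, a LIM homeobox factor, measured 7.41 and 7.64 on the hippocampus arrays and 4.87, 4.95, 4.85 and 4.78 on the cortex arrays, a difference of 2.66 ± 0.11 (SE), adjusted p = 0.0029. In all 3 genes both hippocampus arrays lay above every cortex array, which the rule for the 15 largest required. Tspan18, a tetraspanin, differed by 2.23 ± 0.12 (SE), adjusted p = 0.00309, and Ndst4, a heparan sulfate sulfotransferase, by 2.34 ± 0.20 (SE), adjusted p = 0.00652. Npy2r, a receptor for neuropeptide Y, differed by 2.09 ± 0.27 (SE), adjusted p = 0.0183, with 8.73 and 8.70 on the hippocampus arrays and 6.94, 6.33, 6.20 and 7.02 on the cortex arrays. The muscarinic receptor Chrm5 (2.09) and the nicotinic subunit Chrna5 (1.91) were also among the 15 largest, as were Serpina3n, a protease inhibitor (1.94), Sertm1 (1.90), Popdc3 (2.12), the carbonic anhydrase Car12 (1.89) and the cytokine Il16 (1.81), at adjusted p from 0.0033 to 0.0185. As labelled, the differences of Crym, St18 and Lhx9 were 1.67, 1.81 and 1.90. Of the 15 largest, St18, Lhx9, Ndst4, Popdc3, Chrna5, Car12 and Il16 passed the level of 6 only through hippocampus. Their cortex means ran from 4.86 (Lhx9) to 5.89 (Il16), so their folds rest on low cortex signal. At levels at or below 6 the largest higher values were those of Ifi203 (2.95), Olfr732 (2.62) and Kera (1.97), where a fold rests on signal near background. In this group of rule-chosen called genes, St18, Lhx9, Crym, Tspan18, Popdc3, Car12 and Il16 kept the call without each single array, and the others lost it without at least 1: the highest adjusted p among single-array omissions ran from 0.0627 for Ifi203, without hippocampus control 1, to 0.141 for Npy2r, without hippocampus control 1. Once the pair offset was subtracted, Olfr732 was no longer called (adjusted p = 0.0599).

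Counts in gene lists are read against the 5.88% called of 14860 genes with 1 symbol at any level, 3.08% higher and 2.81% lower. In the list of dentate granule cell genes, 4 of 11 measured members were called higher and 1 lower, with a median difference of 0.37 against 0.02 over all probe sets. Beside Prox1, Neurod1, a basic helix-loop-helix factor of granule cell differentiation, measured 9.90 and 10.09 on the hippocampus arrays and 8.46, 8.11, 8.24 and 8.22 on the cortex arrays and was higher by 1.74 ± 0.13 (SE), adjusted p = 0.00556. Lct (0.96) and C1ql2, a secreted synaptic protein of mossy fibres (0.77), were higher as well, and the lower member was Igfbp5 (-0.81), a binding protein of insulin-like growth factors. Igfbp5 and, below, Spock1, Ebf3, Homer3, Celsr1, Bmp5, Nptx1 and Kcnk1 were named after their values were seen. For CA3 and CA2 genes, 6 of 16 measured members were called higher and 1 lower (median 0.54). Grik4, a kainate receptor subunit concentrated in CA3, measured 9.33 and 9.48 on the hippocampus arrays and 8.13, 7.86, 7.84 and 7.74 on the cortex arrays and differed by 1.52 ± 0.14 (SE), adjusted p = 0.0074, and Tgfb2 (1.29) and the angiotensin-related receptor Mas1 (1.01) were higher too, beside St18, Sostdc1 and the postsynaptic scaffold protein Homer3 (0.62), and the proteoglycan Spock1 was lower (-0.71). Mas1 had a level of 5.56, below the threshold of 6. Of CA1 and pan-hippocampal genes, 4 of 13 measured members were called higher and 1 lower (median 0.20). Fibcd1, a gene of CA1 neurons, measured 7.97 and 7.87 on the hippocampus arrays and 6.10, 6.07, 6.13 and 6.17 on the cortex arrays (1.80 ± 0.09 (SE), adjusted p = 0.00291), and Emx2, a homeobox factor needed for hippocampal growth, was higher by 1.29, whereas Mpped1 was lower (-0.95). The other higher members were Zbtb20 and Dcn, a proteoglycan that meningeal fibroblasts also make. Cajal-Retzius cells, early neurons that secrete reelin and line the hippocampal fissure, had 4 of 11 genes called higher and 2 lower. Cxcr4 (1.29), Nhlh2 (1.01), Ebf3 (0.54) and Ndnf (0.92) were higher, and Tbr1 and Cacna2d2 were lower. Reelin itself (Reln, named after its value was seen) differed by 0.14 and was not called. Across these called genes chosen by rule, St18, Zbtb20 and Fibcd1 kept the call without each single array, and the others lost it without at least 1: the highest adjusted p among single-array omissions ran from 0.0588 for Neurod1, without hippocampus control 1, to 0.261 for Cacna2d2, without hippocampus control 1. With the offset of the matching pairs subtracted, Cxcr4, Dcn, Lct, Ndnf, C1ql2 and Cacna2d2 were no longer called, at adjusted p from 0.0622 to 0.13. Igfbp5, Homer3, Spock1, Sostdc1 and Ebf3 lost the call there too. The calls left were 2 in the dentate list, 4 in the CA3 and CA2 list and 2 in the Cajal-Retzius list.

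**Figure D3:**
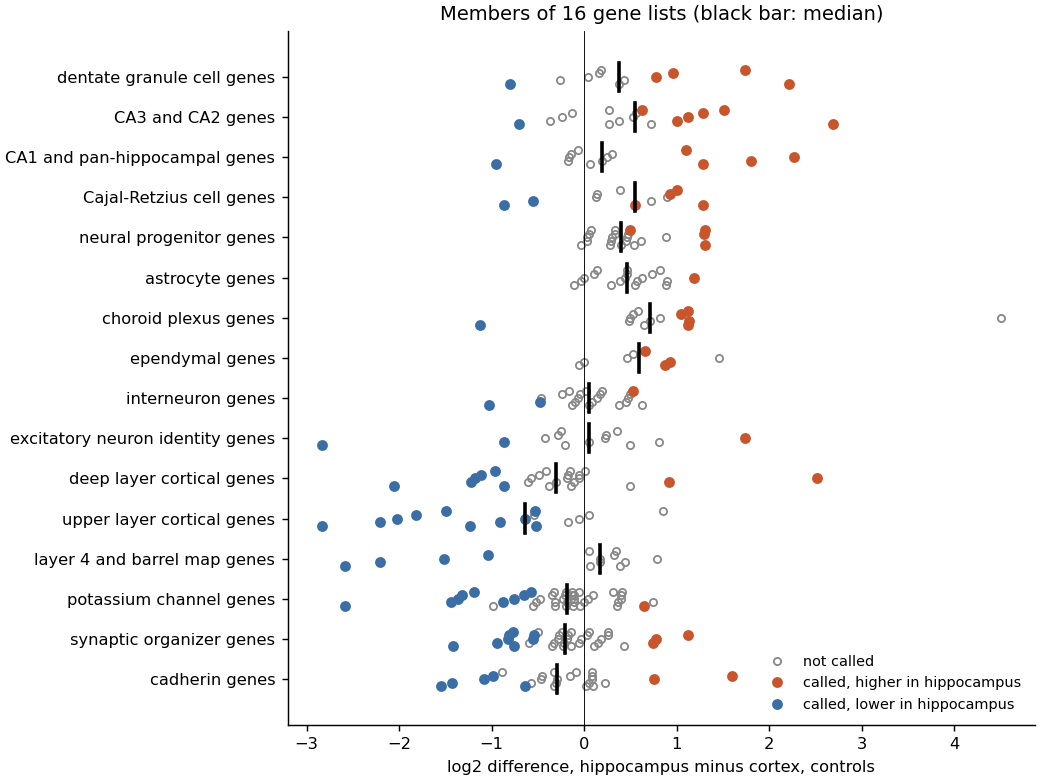
Log2 difference, hippocampus minus cortex (horizontal axis), of every measured member of 16 gene lists (rows), with filled points for called genes and a black bar at each list's median. The upper layer list has 10 called members on the left and 0 on the right, and the open point at 4.50 is Ttr. The 16 of 42 lists were picked for the plot with their values known.

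Genes of cortical layers were among the largest lower levels in hippocampus. Mef2c, a MADS box factor of cortical neuron maturation, measured 9.54 and 9.49 on the hippocampus arrays and 12.36, 12.37, 12.43 and 12.25 on the cortex arrays, and at 7.14-fold lower in hippocampus (-2.84 ± 0.10 (SE), adjusted p = 0.00203) it had the smallest p of all probe sets. Of the upper layer genes, 10 of 15 were called lower and 0 higher, with a median of -0.64. Besides Mef2c, Rorb and Cux2 these included Pou3f2, a POU factor of upper layer neurons, at 7.39 and 7.06 on the hippocampus arrays and 9.31, 9.48, 9.17 and 9.05 on the cortex arrays (-2.03 ± 0.16 (SE), adjusted p = 0.00609), and Cux1 (-1.50 ± 0.11 (SE), adjusted p = 0.00438). Among layer 4 and barrel map genes, 4 of 13 were lower and 0 higher, although the list's median was 0.17: the potassium channel Kcnh5 (-2.58), the guidance ligand Efna5 (-1.52), the protein kinase A subunit Prkar2b (-1.04) and Rorb. Kcnh5 measured 6.45 and 6.62 on the hippocampus arrays and 9.33, 8.87, 8.94 and 9.34 on the cortex arrays. In the deep layer list 6 of 23 were lower and 2 higher (median -0.31). Foxp2, a forkhead factor of layer 6 neurons, measured 5.92 and 6.07 on the hippocampus arrays and 8.13, 8.12, 7.95 and 8.02 on the cortex arrays (-2.06 ± 0.11 (SE), adjusted p = 0.00291), and Rprm (-1.18), Syt6 (-1.11) and Tbr1 (-0.87) were lower too. The 2 members called higher were Crym and Nr4a2 (0.92), while Fezf2, a determinant of layer 5 projection neurons, differed by 0.01 and was not called; Nr4a2 and Fezf2 were named after their values were seen. Nr4a2 was no longer called once the pair offset was subtracted. As labelled, Mef2c and Kcnh5 differed by -1.89 and -1.68. Of the called genes here that the rule chose, Crym, Cux2, Foxp2, Rorb and Mef2c kept the call without each single array, and the others lost it without at least 1: the highest adjusted p among single-array omissions ran from 0.0536 for Pou3f2, without hippocampus control 3, to 0.142 for Tbr1, without hippocampus control 1.

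Several of the 15 largest lower levels belong to none of the layer lists. Sorcs1, a sorting receptor, measured 5.96 and 6.27 on the hippocampus arrays and 8.89, 8.71, 8.75 and 8.81 on the cortex arrays and was 6.39-fold lower in hippocampus (-2.68 ± 0.13 (SE), adjusted p = 0.00291). The groups did not overlap, which the rule for the 15 largest required. The actin-binding protein Klhl1 (-2.23), the phospholipase Pla2g4e (-2.09), the repulsive guidance cue Sema3a (-2.04), the Rab regulator Tbc1d5 (-2.05), Minar1 (-1.88), the adaptor Dok5 (-1.87), the calcium-binding protein Necab1 (-1.82) and Met, the receptor of hepatocyte growth factor (-1.78), were lower at adjusted p from 0.00291 to 0.011. At levels at or below 6 the largest lower values were those of Trpa1 (-2.91), Ankrd34c (-1.95) and the thyrotropin receptor Tshr (-1.87). As labelled, Sorcs1 differed by -1.81. Among the called genes chosen by the rule here, Tshr, Minar1, Sema3a, Tbc1d5 and Sorcs1 kept the call without each single array, and the others lost it without at least 1: the highest adjusted p among single-array omissions ran from 0.0515 for Met, without hippocampus control 1, to 0.125 for Ankrd34c, without hippocampus control 1.

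Transcription factors that pattern the forebrain were called in both directions. Of 76 measured homeobox and other region factors, 10 were higher and 15 lower (median -0.12). Among area patterning genes, 2 of 19 were higher, Emx2 and Crym, and 7 were lower (median -0.21). Cdh6, a cadherin with borders between cortical areas, measured 7.87 and 8.01 on the hippocampus arrays and 9.61, 9.38, 9.43 and 9.53 on the cortex arrays (-1.55 ± 0.11 (SE), adjusted p = 0.00448). Id2, an inhibitor of helix-loop-helix factors (-1.03), and Meis2, a TALE homeobox factor (-1.06), were lower as well. The excitatory neuron list had 1 of 13 genes higher, Neurod1, and 2 lower, Mef2c and Tbr1 (median 0.05). In this group of rule-chosen called genes, Crym and Mef2c kept the call without each single array, and the others lost it without at least 1: the highest adjusted p among single-array omissions ran from 0.0588 for Neurod1, without hippocampus control 1, to 0.142 for Meis2, without hippocampus control 1.

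Receptors and ion channels differed by subunit. Among ionotropic glutamate receptor genes 2 of 19 were higher, Grik4 and the AMPA receptor subunit Gria1, and 2 lower, the AMPA subunit Gria4 and the kainate receptor partner Neto2. Gria1 measured 11.22 and 11.27 on the hippocampus arrays and 10.35, 10.31, 10.38 and 10.34 on the cortex arrays (0.90 ± 0.09 (SE), adjusted p = 0.01), Gria4 differed by -0.56 ± 0.11 (SE), adjusted p = 0.0446, and Neto2 by -0.85 ± 0.15 (SE), adjusted p = 0.0374. Of 5 metabotropic receptors 2 were lower, Grm3 (-1.22 ± 0.11 (SE), adjusted p = 0.00678) and Grm8 (-1.09), and 0 higher. GABA-A receptor subunits split, with Gabra2 higher (0.91) and Gabra3 (-0.60) and Gabrb2 (-0.65) lower among 11 GABA receptor genes, and the other probe set of Gabrb2 measured -0.59 and was not called (adjusted p = 0.185). Of monoamine, cholinergic and steroid receptors 5 of 36 were higher and 3 lower, with Chrm5, Chrna5 and the adrenergic receptor Adra2c (1.18) higher and the serotonin receptor Htr2a lower (-1.12). Potassium channel genes had 9 of 42 lower and 1 higher, Kcnk1 (0.64), with a median of -0.19. The lower channels included 3 of the ether-a-go-go family, Kcnh5, Kcnh1 (-1.32) and Kcnh7 (-1.20), and Kcnf1 (-1.44). Of sodium, calcium and HCN channel genes 3 of 21 were lower, Scn1a (-0.69), Scn3a (-0.54) and Cacna2d2 (-0.55), and 1 higher, Scn7a (1.26, at a level of 4.17). Across these called genes chosen by rule, all lost the call without at least 1: the highest adjusted p among single-array omissions ran from 0.0611 for Kcnh5, without hippocampus control 1, to 0.261 for Cacna2d2, without hippocampus control 1. After subtraction of the pair offset, the rule-chosen genes no longer called were Adra2c, Gabra2, Scn3a, Cacna2d2, Gria4, Gabra3 and Gabrb2, at adjusted p from 0.0602 to 0.139.

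Guidance and adhesion genes were also called in both directions. Epha6, a receptor tyrosine kinase for ephrins, measured 10.13 and 10.33 on the hippocampus arrays and 8.75, 8.49, 8.48 and 8.65 on the cortex arrays and was higher in hippocampus (1.63 ± 0.13 (SE), adjusted p = 0.00596), the only one of 19 Eph and ephrin genes called higher. The 3 called lower were Efna5, Efnb2 (-0.95) and Ephb1 (-0.71). Of 45 semaphorin, plexin, netrin and slit pathway genes 4 were higher and 8 lower. The ligand Sema3a measured 6.96 and 7.07 on the hippocampus arrays and 9.15, 8.95, 8.99 and 9.10 on the cortex arrays (-2.04 ± 0.11 (SE), adjusted p = 0.00291), and Sema3f, a ligand of the same class, was lower too (-1.07). Nrp1, the receptor for Sema3a, measured 10.57 and 10.82 on the hippocampus arrays and 9.32, 9.25, 9.33 and 9.17 on the cortex arrays and was higher (1.43 ± 0.12 (SE), adjusted p = 0.00609). The Slit receptor Robo2 was lower (-1.20 ± 0.11 (SE), adjusted p = 0.0074). Cadherins had 2 of 24 higher, Pcdh20 (1.60) and Celsr1 (0.76), and 5 lower, with Cdh6, Pcdh7 (-1.08) and Cdh13 (-0.98). None of 22 protocadherin beta genes was called (median -0.13). Synaptic organizers had 3 of 34 higher and 8 lower (median -0.20), the higher being C1ql2, Nptx1 (1.12) and Nptx2 and the lower ones including Il1rapl2 (-1.41), the teneurin Tenm1 (-0.94), the receptor phosphatase Ptprd (-0.83) and Slitrk5 (-0.77). Of the called genes here that the rule chose, Sema3a kept the call without each single array, and the others lost it without at least 1: the highest adjusted p among single-array omissions ran from 0.0536 for Nrp1, without hippocampus control 3, to 0.218 for Nptx2, without hippocampus control 1. Once the pair offset was subtracted, the rule-chosen genes no longer called were C1ql2, Nptx2, Ephb1 and Slitrk5, at adjusted p from 0.0541 to 0.0868.

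Secreted signals and their receptors followed. Of 36 neurotrophin and growth factor genes 6 were higher and 5 lower. Fgfr1, a fibroblast growth factor receptor, measured 9.47 and 9.65 on the hippocampus arrays and 7.95, 7.92, 7.83 and 7.80 on the cortex arrays (1.68 ± 0.11 (SE), adjusted p = 0.0033), and Gfra1, a co-receptor of GDNF, was higher by 1.48 ± 0.13 (SE), adjusted p = 0.00652. Bdnf, just under the level of 6, was higher by 0.80. Neuropeptide precursors had 3 of 22 higher, Nts (neurotensin, 1.52), Scg2 (0.69) and Pnoc (0.66), and 1 lower, Trh (thyrotropin-releasing hormone, -1.61). In the Wnt pathway 2 of 46 genes were higher, the ligands Wnt2 (1.68, with a cortex mean of 5.39) and Wnt5a (0.55), and 1 lower, the receptor Fzd3 (-0.83). BMP and TGF-beta genes had 3 of 32 higher, Tgfb2, Id4 and the inhibitor Fst (0.85), and 3 lower, the ligands Bmp2 (-1.14) and Bmp5 (-0.60) and the target Id2. Of the 3 lower ones, 1 had a level above 6. In the retinoid list the binding protein Crabp1 was higher (1.10) and the synthetic enzyme Aldh1a3 lower (-1.28) among 15 genes. Of activity-regulated genes 5 of 29 were higher and 0 lower (median 0.16), namely Bdnf, Nr4a2, Dusp4 (1.04), Nr4a3 (0.77) and the pentraxin Nptx2 (0.75). Among the called genes chosen by the rule here, Fgfr1 kept the call without each single array, and the others lost it without at least 1: the highest adjusted p among single-array omissions ran from 0.054 for Wnt2, without hippocampus control 1, to 0.256 for Id4, without hippocampus control 1. With the offset of the matching pairs subtracted, Dusp4, Fst, Nptx2, Scg2, Pnoc, Wnt5a and Id4 were no longer called, at adjusted p from 0.0637 to 0.267. Bmp5 and Nr4a2 lost the call there too.

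Calls in lists of progenitor and other cell type genes ranged from none to a few per list. Of 21 neural progenitor genes 4 were called higher and 0 lower, with a median of 0.40 and a mean level of 7.96 and 8.03 on hippocampus control 1 and 3 and 7.41 to 7.69 on the cortex arrays. Eomes, a T-box factor of intermediate progenitors, measured 7.32 and 7.13 on the hippocampus arrays and 5.85, 6.16, 5.89 and 5.83 on the cortex arrays (1.29 ± 0.14 (SE), adjusted p = 0.0114). Hopx (1.31), Tfap2c (1.31, at a level of 5.31) and Id4 (0.50) were the other 3. Of 26 cell cycle genes none was called, although 24 differences were above 0 (median 0.25). Their mean level was 6.72 and 6.88 on hippocampus control 1 and 3, within the range of the cortex arrays (6.31 to 6.88). Immature neuron genes had 2 of 13 higher, Igfbpl1 (1.59) and Draxin (0.61), and 1 lower, Elavl4 (-0.60), with a median of -0.29. In the astrocyte list 15 of 18 differences were above 0 (median 0.46), but only Agt, the angiotensin precursor, was called (1.19 ± 0.13 (SE), adjusted p = 0.011). Of 19 oligodendrocyte, 22 microglial and 5 blood genes none was called, at medians of 0.07, 0.18 and 0.36. Only 2 of the 5 blood genes had a level above 6, and their median was -0.34. Of 22 endothelial and pericyte genes only Ocln was called (0.97), and of 20 meningeal genes only Dcn (1.10). Interneuron genes had 1 of 21 higher, Pvalb (0.53, at a level of 5.48), and 2 lower, Satb1 (-1.03) and Sox6 (-0.48). In whole tissue, a higher share of cells of a type and more RNA per cell cannot be told apart. In this group of rule-chosen called genes, all lost the call without at least 1: the highest adjusted p among single-array omissions ran from 0.0723 for Tfap2c, without hippocampus control 3, to 0.272 for Sox6, without hippocampus control 1. After subtraction of the pair offset, Tfap2c, Hopx, Eomes, Dcn, Ocln, Draxin, Pvalb, Id4, Sox6 and Elavl4 were no longer called, at adjusted p from 0.0503 to 0.244.

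Genes of tissue next to the hippocampus were read for what the dissections held. The choroid plexus, which lies against the hippocampus in the lateral ventricle, makes transthyretin (Ttr, named after its values were seen), which measured 8.28 and 12.27 on the hippocampus arrays and 6.19, 5.71, 5.41 and 5.78 on the cortex arrays. Both hippocampus arrays lay above the cortex arrays, control 3 far above control 1, and the difference of 4.50 was not called (adjusted p = 0.0627). Of 13 choroid plexus genes 12 differed above 0, 4 were called higher and 1 lower, and the mean level was 6.17 and 6.88 on hippocampus control 1 and 3 and 5.51 to 5.67 on the cortex arrays. The higher ones were Otx2 (1.13, at a level of 5.04), Htr2c (1.12), Folr1 (1.05) and Sostdc1 (1.13, named after its value was seen and also on the CA3 and CA2 list). The lower one was the channel Trpm3 (-1.13). Ependymal genes had 3 of 8 higher and none lower. These were Hydin (0.93, at a level of 5.33), Cfap126 (0.87, at a level of 5.16) and Foxj1 (0.65), genes of motile cilia. Only 6 of the 13 choroid plexus genes and 2 of the 8 ependymal genes had a level above 6. The part of ventricular tissue in the higher calls was not tested. Striatal genes had 2 of 14 lower, the dopamine receptor Drd1 (-1.57) and Meis2, and none higher. Thalamic genes had 1 of 11 higher, Lhx9, and 2 lower, Rora (-0.77) and Cbln1 (-0.81). The highest-level members of these lists that were not called were close to 0, with Slc17a6 at -0.21, Gng7 at 0.17, Fn1 at 0.15, Vtn at 0.21, Pltp at -0.05 and Alas2 at -0.28, whereas Tfrc (-0.40) and Foxp1 (-0.52) lay further below 0. Across these called genes chosen by rule, Lhx9 kept the call without each single array, and the others lost it without at least 1: the highest adjusted p among single-array omissions ran from 0.0877 for Trpm3, without hippocampus control 1, to 0.206 for Rora, without hippocampus control 1. Once the pair offset was subtracted, Otx2, Htr2c, Folr1, Cfap126 and Foxj1 were no longer called, at adjusted p from 0.051 to 0.116. Sostdc1 lost the call as well, so that the 1 choroid plexus gene still called was Trpm3, the lower one.

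**Figure D4:**
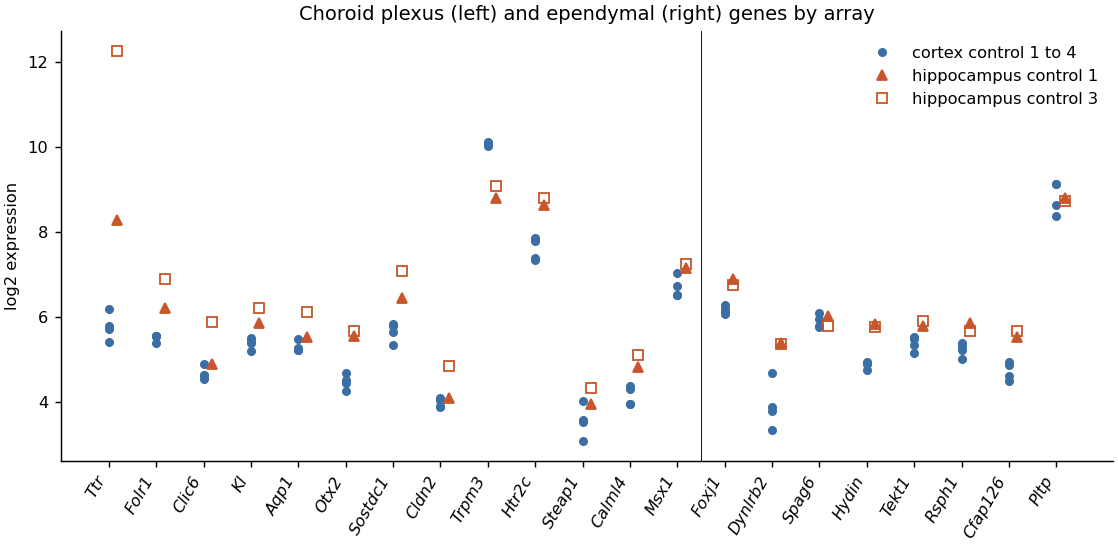
Log2 expression (vertical axis) of 13 choroid plexus genes and 8 ependymal genes (horizontal axis) on the cortex control arrays (circles), hippocampus control 1 (triangles) and hippocampus control 3 (open squares). Ttr measured 8.28 and 12.27 on the hippocampus arrays, and Trpm3 is the choroid plexus gene that lies below the cortex arrays.

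Ctcf itself, floxed but not deleted in these mice, did not pass the test between regions, at 8.95 and 9.16 on the hippocampus arrays and 9.29, 9.23, 9.22 and 9.18 on the cortex arrays (-0.18 ± 0.10 (SE), adjusted p = 0.345). The same held for Neurod6, whose locus drives Cre in the cKO, at 10.35 and 10.63 on the hippocampus arrays and 10.32, 10.30, 10.32 and 10.05 on the cortex arrays (0.24 ± 0.14 (SE), adjusted p = 0.325). Of 15 cohesin and CTCF genes none was called (median -0.33). In the cKO the region difference could be read from 1 hippocampus array, number 2, against the 4 cortex cKO arrays, which share no array with the controls. That hippocampus array had low Y-linked signal (3.79), as had cortex cKO 1 and 4. Of the 1127 probe sets called in controls 1089 (96.6%) had the same sign in cKO, against 72.5% of all probe sets, and above a level of 6 it was 674 of 687, with a median ratio of cKO to control differences of 0.837. The offset of arrays labelled hippocampus enters both comparisons, and above a level of 6 its median size in the called probe sets was 0.0962 against a median difference of 0.805. A difference between the genotypes was called for 2 of 23332 probe sets (0.00857%), 1 in each direction (0.00429% each), of which 1 has no symbol, and 1228 had an unadjusted p under 0.05. The named one was Rprm, a gene of deep layer neurons, which measured 8.57 and 8.53 on the hippocampus arrays and 9.76, 9.64, 9.82 and 9.72 on the cortex arrays in controls and was lower in hippocampus (-1.18 ± 0.10 (SE), adjusted p = 0.00639). In cKO it measured 8.26 on the hippocampus array and 8.02, 7.94, 8.01 and 7.98 on the cortex arrays, a difference of 0.27, and the region differences differed by 1.45 ± 0.13 (SE, adjusted p = 0.0228). This SE and p assume that the single hippocampus cKO array varies like the arrays of the other groups, since it has no replicate of its own. No probe set was called there after omission of hippocampus control 1 or 3, of cortex control 2, 3 or 4, or of any cortex cKO array. Side by side, Tshr differed by -1.87 in controls and -0.28 in cKO, Ndst4 by 2.34 and 0.77, Dcn by 1.10 and -0.17, and Cdh6 by -1.55 and -2.62, with adjusted p for the difference between genotypes from 0.0563 to 0.525. Crym, St18 and Mef2c differed by 1.93, 3.06 and -2.20 in cKO, beside 2.52, 2.69 and -2.84 in controls.

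**Figure D5:**
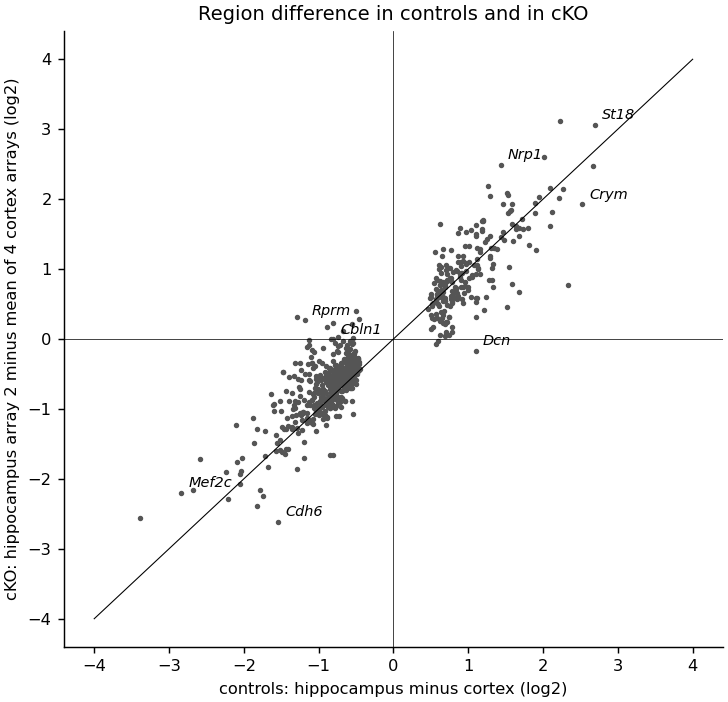
Region difference in controls (horizontal axis, log2, hippocampus control 1 and 3 minus 4 cortex arrays) and in cKO (vertical axis, log2, hippocampus array 2 minus 4 cortex arrays) for the 687 probe sets called in controls at a mean level above 6, with the line of equal differences. Of these, 674 lie in the lower left and upper right quadrants.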

How the data were processed

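Expression was measured on Affymetrix exon arrays, and the deposited values are log2 expression per probe set, made by the authors with Affymetrix Expression Console, RMA and Partek 6.4 on the mm9 build, per the submitters' processing notes. Which arrays were normalized together and whether the regions were run as separate sets is not given in the labels or notes. Values were used as deposited for 23332 probe sets, and 0 value columns were of no known sample. Genes were named through the platform annotation, with symbols updated by gene ID: 14996 probe sets had 1 symbol (14860 genes), 1019 several and 7317 none. Where a gene had several probe sets, the one with the highest level stood for it.

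The contrast of hippocampus control 1 and 3 minus cortex control 1 to 4 was fitted with limma 3.58.1 in R 4.3.3 (lmFit, eBayes, 4 residual and 2.15 prior degrees of freedom), with Benjamini-Hochberg adjustment over all probe sets. Calls required both a fold above 1.2 and an adjusted p below 0.05. SE is the moderated standard error, and the number of arrays limits precision. The difference between genotypes was fitted on 11 arrays, without the 3 that match a cortex array. The procedure was tested on simulated data.

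The members and the 42 gene lists, with 797 of 948 symbols measured, were chosen with earlier results of these data known. Genes were named by a rule: Prox1, Zbtb20, Rorb, Cux2, Ctcf and Neurod6 always, the 15 largest calls each way above a level of 6 with 1 symbol and no overlap between groups, the 3 largest each way at or below 6, up to 4 called members of each list by p, and the 2 highest-level members of lists of other tissues. Alternatives changed the arrays used, the normalization, the filter, the variance model, the replicate block, the probe sets per gene and the fold. Chosen after seeing the data were the subtraction of the matching pairs' offset, whose error does not enter SE or p, the omission of cortex control 1 and 3 together, and renewed quantile normalization of the 7 control arrays and of the 11 arrays.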

Additional observations from a re-analysis of the deposited data

Results flagged for a closer look

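Chance alone sets apart about 1 in 20 groups of 4 arrays, and 7 of the 137 named genes had 1 cortex control array far from the other 3. On cortex control 1 the level was 7.04 for Tspan18, above the others by most of the group's range, and 5.39 for Folr1, 5.92 for Nhlh2 and 7.06 for Trh, below them. Cortex control 4 stood apart at 10.05 for Neurod6 and 10.19 for Dok5, below the others, and at 10.13 for Cdh13, above them. In Tspan18, Folr1, Nhlh2, Cdh13, Trh and Dok5 these gaps were smaller than the distance to the hippocampus arrays.

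Rprm differed between genotypes in its region difference, by 1.45 (log2, adjusted p = 0.0228), with 1 hippocampus array in the cKO, whose spread is taken from the other groups and has no replicate check.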

How the results depend on the processing

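All 1127 differences kept their sign under every alternative except subtraction of the matching pairs' offset (1113 with 2 pairs, 1116 with 3); with only probe sets above 6 tested, or 1 probe set per gene, this held for the 687 and 1122 of them that were tested. The 1127 were called on these same arrays, so kept signs are no separate check. The number of calls moved with most settings. Counts are given here in the order all, higher, lower and above a level of 6, against 1127, 554, 573 and 687. Leaving out each array in turn gave 26 to 520, 14 to 258, 12 to 262 and 22 to 328. The 7 control arrays as labelled gave 1, 1, 0 and 0, with 4161 unadjusted p under 0.05, and with quantile normalization 0, 0, 0 and 0, with 3418. Without cortex control 1 and 3, 2 arrays against 2, the counts were 0, 0, 0 and 0, with 3786 unadjusted p under 0.05. The 11-array fit gave 2913, 1446, 1467 and 1874, and with Y-linked signal as a covariate 1772, 911, 861 and 1149. All 14 arrays as labelled gave 635 calls, 130 lower and 160 above 6. Centring on array medians gave 1933 calls, 1361 lower and 1448 above 6 (29.6% higher), testing only levels above 6 gave 1026 lower and 1533 above 6, and eBayes with trend and robust gave 1084 lower and 1323 above 6 (31.7% higher). Array weights gave 858 higher, and no moderation gave 702 calls, 286 higher. A fold of 2 left 395, 188, 207 and 220. Subtracting the offset of 2 pairs gave 404, 121, 283 and 320 (30.0% higher), and of 3 pairs 373, 112, 261 and 299. The cause of these changes was not tested.

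Replicate numbers 1 and 3 occur in both regions, and deviations from group means correlated at -0.21 and -0.05 for the same number. The deviations of the 2 hippocampus arrays mirror each other. These correlations therefore cannot show whether samples with the same number share an animal. With replicate number as a fixed block, which leaves 1 residual degree of freedom, 777 probe sets were called, 308 higher and 199 above 6, and 295 of them were among the 1127. As a random block (consensus correlation -0.49) the replicate block gave 352, 151, 201 and 267. The difference between genotypes was called for 2 probe sets, 4 with the 11 arrays quantile normalized again, 0 with 14 arrays as labelled (300 unadjusted p under 0.05) and 0 to 2 with single arrays left out. Pltp, not called at -0.05, was at 0.0541 with quantile normalization, 0.0798 with array weights, 0.00979 without cortex control 1 and 3, and -0.200 to 0.0535 with single arrays left out. The number of arrays and the nearness of signal to background limit what can be called.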
